A study of Mus musculus with 360 samples.

Results

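The 8 genes described here encode initiator caspases and the proteins that bind, activate or restrain them. They are Casp8 and Cflar of the death receptor route, Casp9, Apaf1 and Cycs of the mitochondrial route, and the inhibitors Xiap and Birc2 with their antagonist Diablo. They were taken by symbol, and all 8 were found among the 24781 genes of the expression table. The cells were of the mouse line C1498, given as an acute myeloid leukemia line, held at 45 °C or, as the control, at 37 °C for 10 min, filmed, and collected 1 by 1 with an automated imaging and picking instrument. The 45 °C arm gave 6 cells taken 1 h before the end of heating (written as before heating below), then 13 after 1 h, 52 after 10 h and 21 after 15 h, and its 5 h group held 61.9% of all 360 cells. The 37 °C arm gave 11 cells before heating, then 11 (1 h), 6 (5 h), 6 (10 h) and 11 (15 h). Of the 10 groups, 4 with 309 cells had been heated and 6 with 51 cells had not, the 45 °C arm before heating being 1 of these 6. All cells are of 1 line, and which culture each came from is not named.

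Apoptosis is carried out by caspases, proteases that are made as inactive precursors. In the death receptor route, receptors such as Fas gather caspase-8 through the adaptor FADD, and c-FLIP, the product of Cflar, is a relative of caspase-8 without protease activity that joins the same complex and limits its activation. In the mitochondrial route, cytochrome c (Cycs) leaves the mitochondria and binds Apaf-1, which then activates caspase-9. XIAP binds and inhibits caspases, cIAP1 (Birc2) is a ubiquitin ligase of TNF receptor complexes, and Smac (Diablo) is released from mitochondria and binds these inhibitors. Cleavage, release and binding of these proteins were not measured here, where the values are amounts of RNA.

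No label names a culture, so each group was read as 1 sample and no difference was tested. Levels are the molecules (UMIs) of a gene summed over the cells of a group, per 1000000 UMIs of that group (CPM). The molecules were counted from poly(A) ends, so CPM is not scaled by transcript length, and levels are compared between groups and not between genes. Ratios are on the log2 scale, 45 °C over 37 °C at the same time, taken from sums rounded to whole UMIs with 0.5 UMI added to each. Intervals of levels and ratios are exact 95% intervals of counting error and leave out differences between cells and cultures. Those of shares of cells are exact 95% intervals that take each cell as 1 draw, although the cells of a group are 1 sample. They leave out differences between cultures. The median cell of a group had 18741 UMIs (45 °C, 10 h) to 40544 UMIs (37 °C, before heating), and single cells had 1060 to 122196. A group with no UMI of a gene still allowed up to 3 UMIs, which was 0.441 CPM in the large 5 h group of the 45 °C arm and 17.3 CPM in the 6 cells of the 37 °C arm at 10 h.

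The unheated cells carried leukocyte RNA, with Ptprc, the gene of CD45, at 501.5 CPM. Against the myeloid label, 5 of 6 myeloid markers had no UMI in any cell and the sixth, Mpo, had 14 UMIs in all, so that the myeloid sum was between 0 and 2.06 CPM in every group. Of 8 T and NK cell markers, the CD3 chains Cd3e and Cd3g stood at 199.2 and 230.1 CPM in the unheated cells, Cd3d, Cd2 and Nkg7 at 4.71, 2.09 and 1.05 CPM, and Cd4, Cd8a and Klrb1c had no UMI there. The heat label was met at 5 h by the chaperone gene Hsph1, at 1838 CPM in heated cells and 365.1 CPM in 37 °C cells. The heated groups at 10 and 15 h, at 1409 and 484.7 CPM, also lay above the unheated groups, which spanned 156.3 to 365.1 CPM. At 1 h the heated group, at 266.2 CPM, lay inside that span, so Hsph1 did not set it apart.

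The start regions of 3 of the genes are printed because they carry the results below. Cflar and Casp8 lie on the same strand of chromosome 1, 36489 bases apart (Cflar at chr1:58711508-58758884 and Casp8 at chr1:58795374-58847503, mm10), and differed between the arms in opposite directions at 5 h, while Cycs (chr6:50562563-50566538, minus strand) was lower at 10 and 15 h. Each line gives the RefSeq window of 300 bases in build GRCm38.p6, from 250 bases before the start to 50 after it, on the gene's own strand. The windows are chr1:58711241-58711540 for Cflar, chr1:58802252-58802551 for Casp8, which lies within the longer span of that gene in mm10, and chr6:50566520-50566819 for Cycs. Capitals mark the cyclic AMP response element TGACGTCA.
Cflar: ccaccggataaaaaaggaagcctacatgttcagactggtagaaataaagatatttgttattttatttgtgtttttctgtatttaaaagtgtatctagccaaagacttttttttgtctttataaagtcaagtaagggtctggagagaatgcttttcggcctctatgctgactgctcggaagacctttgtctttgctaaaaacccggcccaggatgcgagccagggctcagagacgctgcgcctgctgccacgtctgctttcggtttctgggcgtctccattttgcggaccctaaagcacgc
Casp8: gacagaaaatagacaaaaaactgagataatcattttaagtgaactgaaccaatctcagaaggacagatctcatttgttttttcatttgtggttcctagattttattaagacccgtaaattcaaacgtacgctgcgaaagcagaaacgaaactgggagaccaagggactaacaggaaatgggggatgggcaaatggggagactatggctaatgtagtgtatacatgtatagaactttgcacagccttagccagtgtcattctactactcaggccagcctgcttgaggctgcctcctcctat
Cycs: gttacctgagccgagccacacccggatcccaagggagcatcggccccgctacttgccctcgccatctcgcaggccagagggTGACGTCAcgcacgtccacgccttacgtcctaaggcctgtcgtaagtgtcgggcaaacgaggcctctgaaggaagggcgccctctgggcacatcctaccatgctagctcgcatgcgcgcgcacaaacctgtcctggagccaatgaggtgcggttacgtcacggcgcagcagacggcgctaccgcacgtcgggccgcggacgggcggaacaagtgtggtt

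Over both strands of the 11 RefSeq windows of the 8 genes, the paired heat shock element letters GAANNTTC and TTCNNGAA were in none, against 7.86% and 8.52% of all 32851 promoter windows of that length. The window of Hsph1 held 2 and 4 matches to these letters, counted with overlaps. TGACGTCA stood once in the Cycs window shown above and once in a Birc2 window, and in 1.79% of all windows. Neither the NRF1 palindrome (0.971% of all windows) nor the kappa B motif (1.63%) was found in any window of the 8 genes. A match or its lack describes these windows only.

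Across the 4 times after heating, few of the 8 genes passed a 2-fold difference between the arms, and no gene passed it at more than 1 time except Casp8, which was higher at 1 h and lower at 5 h. A gene counted as measured with 20 or more UMIs over the pair of groups and 10 or more CPM in either. At 1 h, Casp8 was at least 2-fold higher and Xiap at least 2-fold lower among 5 measured genes, against 1.48% of all 5278 measured genes that were at least 2-fold higher and 6.33% that were at least 2-fold lower. At 5 h, Cflar was at least 2-fold higher and Casp8 and Apaf1 at least 2-fold lower among 7 measured genes (6.19% and 15.3% of all 7592 measured genes). At 10 h, Birc2 alone was at least 2-fold higher among 7 measured genes and none was lower (11.8% and 7.18% of 6447 genes). At 15 h none of 6 measured genes passed in either direction (4.0% and 2.20% of 6351 genes), and before heating none of 6 did (2.66% higher and 4.57% lower among 4809 genes). Counting both directions together, 2 members at 1 h, 3 at 5 h, 1 at 10 h and none at 15 h or before heating passed, beside 7.81%, 21.5%, 19%, 6.2% and 7.24% of all measured genes. Without heat, the 37 °C groups at 1, 5 and 15 h had none of 5 measured members 2-fold apart from the 37 °C group before heating (5.07%, 8.32% and 5.90% of all genes), and the one at 10 h had 1, Diablo, which was lower (8.72%). Casp9 was measured at no time.

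The median log2 ratio of the measured genes of the group was -0.45, -0.08, -0.13 and 0.44 at 1, 5, 10 and 15 h. The medians over all measured genes were -0.14, -0.23, 0.00 and -0.02 at the same times, so the ratios at 5 h stand against a general shift of -0.23. Set against the range of the 6 unheated groups, Xiap and Cflar lay below it at 1 h (16.7% of all measured genes did) and no measured member above it (9.19%). At 5 h Cflar lay above it (7.35%), with Casp8 and Xiap below it (18.5%). At 10 h Cycs lay below it (15.3%) and no measured member above it (21.6%), and at 15 h Cycs was again below it (13.3%) while Diablo and Cflar were above it (15.8%). Apaf1 and Birc2 stayed inside that range at all 4 times.

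**Figure D1:**
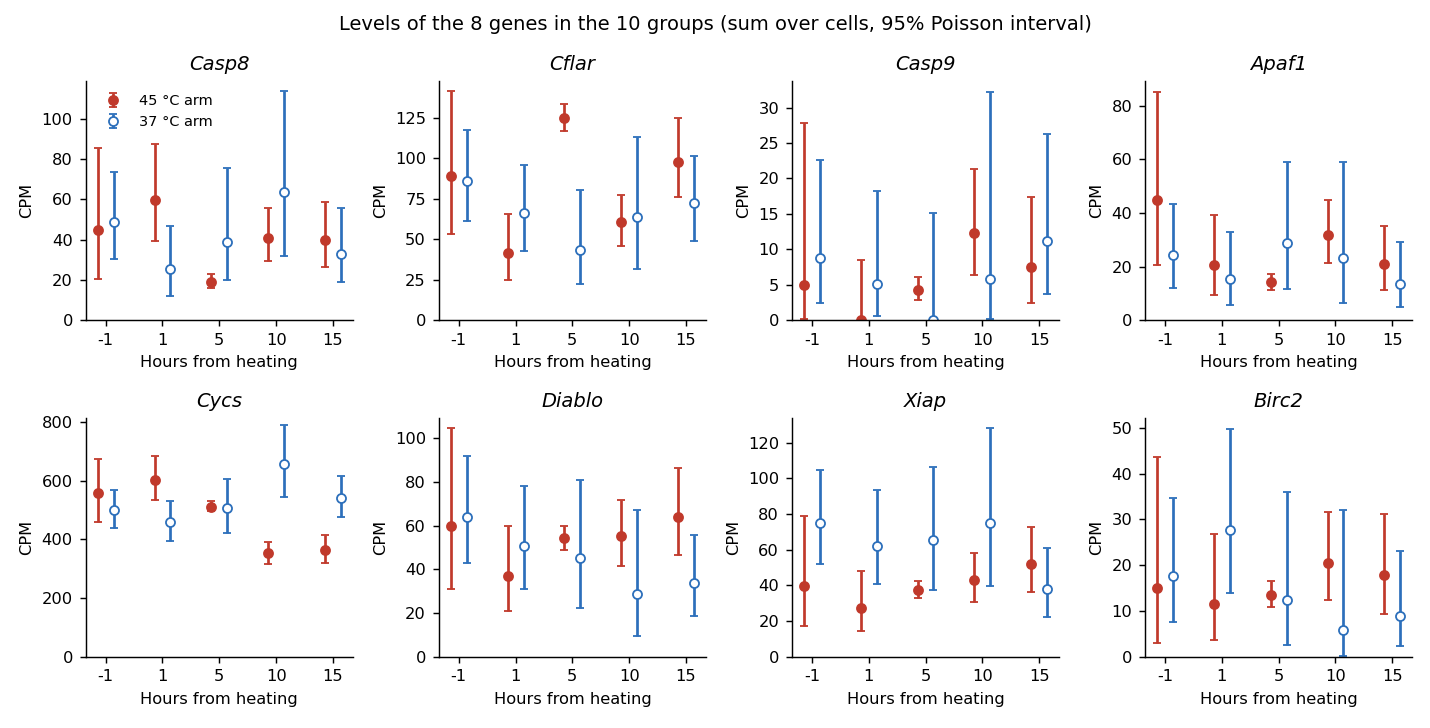
Levels of the 8 genes in CPM (y axis, from 0) against hours from the end of heating (x axis), with the 45 °C arm in filled red and the 37 °C arm in open blue circles. Points are group sums over cells, bars are exact 95% Poisson intervals, and each group is 1 sample. Cflar at 5 h in the 45 °C arm (125.3 CPM) and Cycs at 10 and 15 h in the same arm (352.1 and 364.7 CPM) stand outside the range of the unheated groups.

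Cflar, which encodes the caspase-8 relative c-FLIP, was the member that stood highest above its control at 5 h. Its level in the 45 °C arm was 89 CPM before heating and 41.4, 125.3, 60.5 and 97.7 CPM at 1, 5, 10 and 15 h. Its level in the 37 °C arm was 85.9, 66.5, 43.1, 63.5 and 72.5 CPM at the same times. Cflar was therefore lowest at 1 h and highest at 5 h among the 5 groups of the heated arm, and both of these values lay outside the 43.1 to 89 CPM of the 6 unheated groups. The log2 ratio at 5 h was 1.41 (interval 0.63 to 2.48), a 2.66-fold difference. The 37 °C group at that time had 11 UMIs of Cflar in 6 cells and was the lowest of the unheated groups. Against all 6 unheated groups summed, the log2 ratio was 0.80 (0.54 to 1.08), from 125.3 CPM in the heated cells and 71.6 CPM in the unheated ones. Leaving out the 37 °C cell with the most Cflar at 5 h (138.7 CPM) moved the ratio to 2.03, and leaving out another 37 °C cell, with no Cflar UMI, moved it to 1.04. At 1 h the log2 ratio was -0.66 (-1.62 to 0.26), and at 15 h it was 0.44 (-0.18 to 1.11). Within the heated arm, Cflar at 5 h over 1 h was 1.56 (0.93 to 2.36) and at 10 h over 5 h was -1.05 (-1.46 to -0.68).

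In single cells at 5 h, Cflar spanned 0 to 581.4 CPM with a median of 107.7 CPM over the cells of the 45 °C arm, against 0 to 138.7 CPM with a median of 30.3 CPM over 6 cells of the 37 °C arm. The ranges overlapped, and 49 of the heated cells (22%, exact interval 16.7 to 28) lay above the highest unheated cell of any group, which had 194.9 CPM. At 15 h 4 of 21 heated cells did so, at 10 h 3 of 52, and at 1 h none of 13. A UMI of Cflar was found in 93.3% of heated cells and 66.7% of 37 °C cells at 5 h. With cells of at least 5000 UMIs thinned to 5000, these shares were 43.2% of heated cells and 0 of 6 cells at 37 °C. The exact upper limit of that 0 was 45.9%. Over the other groups the thinned shares were 16.7% to 36.4%.

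Casp8, the initiator caspase of the receptor route, was higher in the heated arm at 1 h and lower at 5 h. Its level in the 45 °C arm was 44.9 CPM before heating and 59.8, 19.1, 40.8 and 39.5 CPM at 1, 5, 10 and 15 h. Its level in the 37 °C arm was 48.5, 25.3, 39, 63.5 and 32.6 CPM. The value at 5 h was the lowest of all 10 groups and lay below the 25.3 to 63.5 CPM of the unheated groups, whereas the value at 1 h lay inside that range. The log2 ratio was 1.20 (0.14 to 2.46) at 1 h and -1.17 (-2.03 to -0.01) at 5 h. The 37 °C groups held 10 UMIs of Casp8 at 1 h and 9.5 at 5 h, the latter rounded up to 10 for the ratio. The 5 h interval ended so close to 0 that its staying on 1 side rests on this rounding. Leaving out 1 cell of the 37 °C arm brought the ratio to 0.98 at 1 h, and leaving out another brought it to -0.89 at 5 h, so that either 2-fold difference could be lost with a single cell. Against all unheated cells the 1 h value was 0.61 (-0.11 to 1.25), from 59.8 CPM in heated and 39.7 CPM in unheated cells. The 5 h value was -1.06 (-1.48 to -0.63) on the same scale, and relative to the median of all genes at 5 h it was -0.93. Within the heated arm Casp8 at 5 h over 1 h was -1.67 (-2.26 to -0.98), and at 10 h over 5 h it was 1.11 (0.55 to 1.62). The median heated cell at 5 h had no Casp8 UMI, against a median of 38.7 CPM in the 37 °C cells, and the highest had 152.8 CPM in the heated cells and 92.5 CPM in the 37 °C cells.

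The ratio of Cflar to Casp8 UMIs does not depend on the total of a group, because both are counted in the same cells. It was 6.56 (5.45 to 7.95) at 5 h in the 45 °C arm and 1.10 (0.42 to 2.89) in the 37 °C arm. At 1 h it was 0.69 (0.36 to 1.31) in the 45 °C arm and 2.60 (1.21 to 6.04) in the 37 °C arm. At 10 h the ratio was 1.48 in the 45 °C arm and 1.00 in the 37 °C arm, and at 15 h it was 2.44 at 45 °C and 2.13 at 37 °C. All 6 unheated groups together gave 1.80 (1.35 to 2.42), and singly they ran between 1.00 and 2.60. By these sums the 1 h and 5 h heated groups lay on opposite sides of the unheated ones. The interval at 1 h (0.36 to 1.31) took in the lowest unheated ratio, 1.00. Both genes held many values that were not whole numbers, which made up 46.7% of Cflar UMIs and 25.3% of Casp8 UMIs, against 25.9% of all UMIs in the table. Kept to whole values, the ratio at 5 h was 4.24 in the 45 °C arm and 0.57 in the 37 °C arm. On whole values the 1 h heated group no longer lay below every unheated group. Casp8 overlaps the annotated gene Gm37760 on its own strand. What the molecules in values that were not whole were shared with was not tested.

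**Figure D2:**
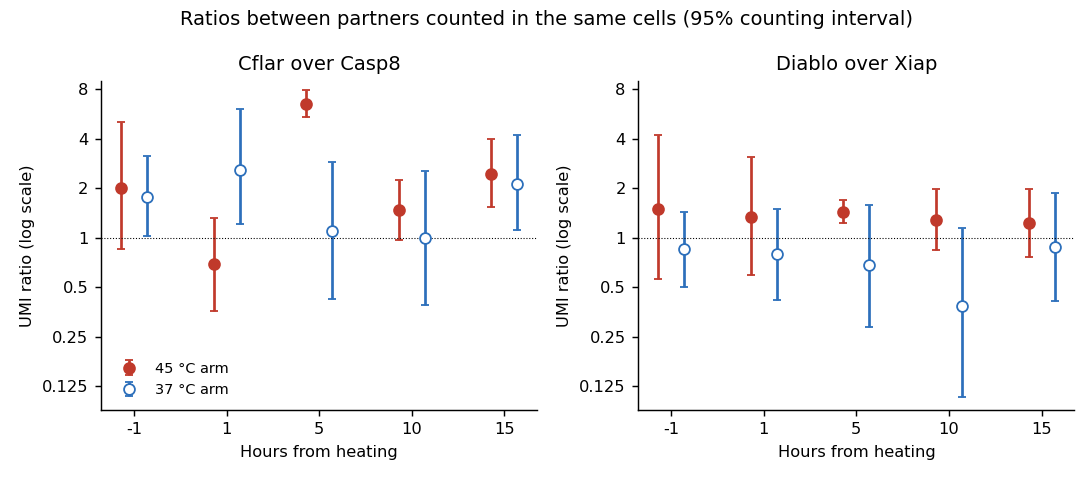
Ratio of UMIs of Cflar over Casp8 (left) and of Diablo over Xiap (right) in each group, on a log axis, against hours from the end of heating, with the 45 °C arm in filled red and the 37 °C arm in open blue circles. Bars are exact 95% counting intervals and the dotted line is a ratio of 1. Cflar over Casp8 is 0.69 at 1 h and 6.56 at 5 h in the heated arm. Diablo over Xiap is above 1 in all 5 groups of the 45 °C arm, the unheated one included, and below 1 in all 5 groups of the 37 °C arm. The interval of Diablo over Xiap leaves out 1 only in the 45 °C arm at 5 h.

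Of the apoptosome genes, only Cycs was counted often enough to follow in detail, and it was lower in the heated arm at 10 and 15 h. Cycs, the gene of somatic cytochrome c, was at 556.4 CPM before heating and 603.3, 511.8, 352.1 and 364.7 CPM at 1, 5, 10 and 15 h in the 45 °C arm. In the 37 °C arm it was at 499.0, 457.4, 506.6, 657.9 and 540.3 CPM. The 2 late heated groups lay below all 6 unheated groups, which spanned 457.4 to 657.9 CPM, and the heated groups at 1 and 5 h lay inside that span. The log2 ratio was 0.40 (0.12 to 0.68) at 1 h and 0.00 (-0.25 to 0.28) at 5 h. The 1 h ratio was 0.11 against the 45 °C arm before heating and 0.81 with whole values only, and the 5 h ratio was 1.23 with cells thinned to 5000 UMIs. The ratio was then -0.91 (-1.21 to -0.58) at 10 h and -0.57 (-0.83 to -0.30) at 15 h. The 37 °C group at 10 h was the highest of the unheated groups, 0.40 (0.06 to 0.73) above the 37 °C group before heating. Against all unheated cells at 521.4 CPM, the heated cells stood at -0.57 (-0.75 to -0.39) at 10 h and -0.51 (-0.72 to -0.31) at 15 h. With any single cell left out the ratio stayed between -0.94 and -0.79 at 10 h and between -0.67 and -0.50 at 15 h.

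In single cells at 10 h, Cycs spanned 0 to 952.7 CPM with a median of 288.7 CPM in the 45 °C arm, against 548.8 to 849.4 CPM with a median of 591.0 CPM in the 6 cells of the 37 °C arm. At 15 h the heated cells spanned 0 to 810.0 CPM with a median of 325.4 CPM, and the 37 °C cells 343.6 to 845.4 CPM with a median of 578.1 CPM. The heated ranges reached lower and overlapped the 37 °C ranges at both times. Of the heated cells, 11 of 52 at 10 h and 2 of 21 at 15 h lay above the median unheated cell, at 529.1 CPM, against 45.3% of the heated cells at 5 h. The median cell at 10 h in the 45 °C arm had the fewest UMIs of the 10 groups, 18741, which moves with the lower Cycs level, and its part in the result was not tested. With cells of at least 5000 UMIs thinned to 5000, the ratio at 10 h was -0.62, from 47 of the 52 heated cells. The 5 heated cells left out had no Cycs UMI. Some molecules of Cycs may be shared with copies of the gene, since 2 annotated pseudogenes carry its name and 7.66% of its UMIs were in values that were not whole.

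**Figure D3:**
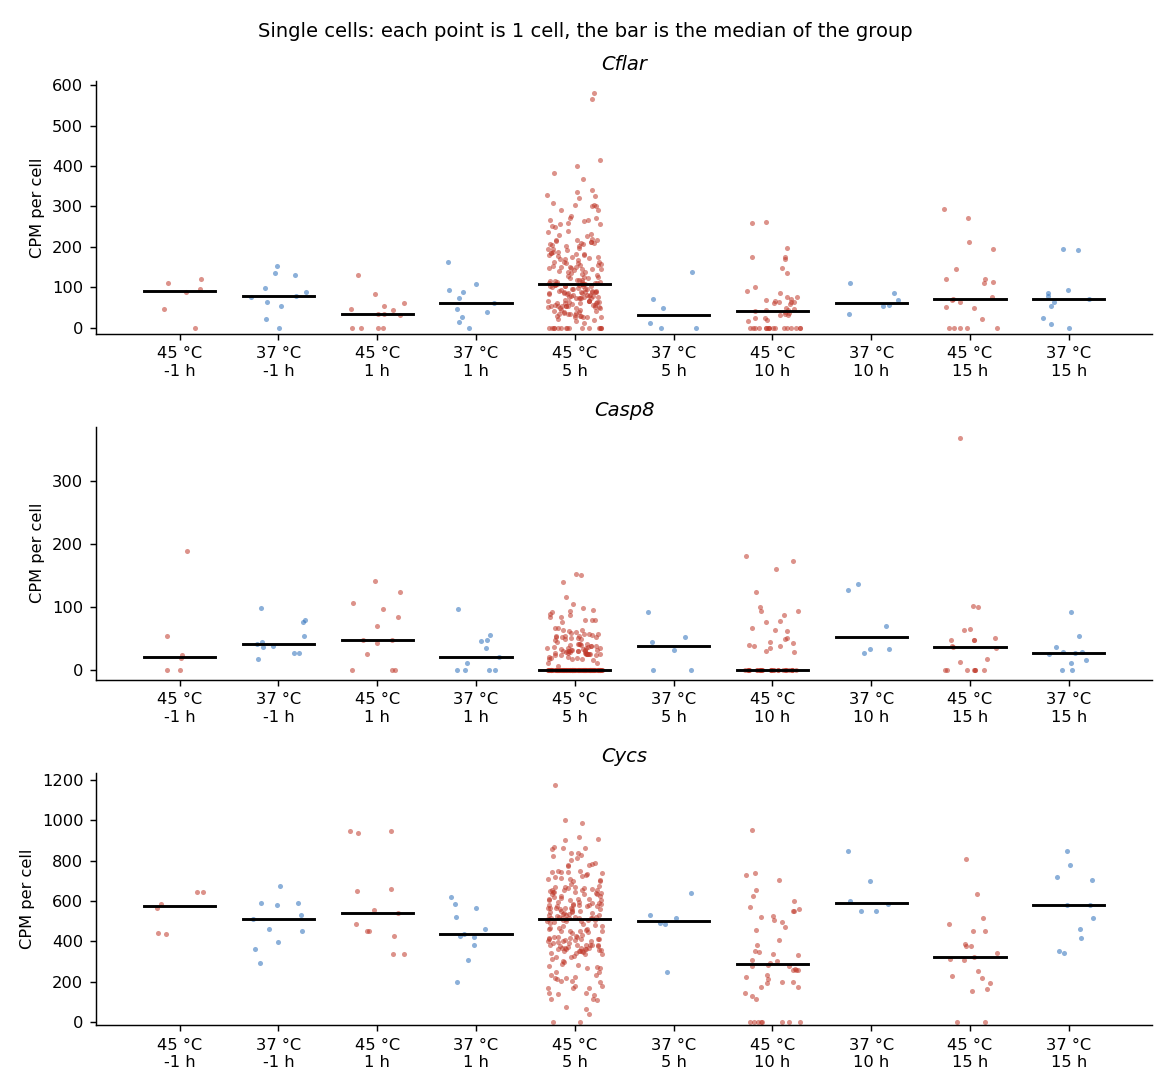
Cflar, Casp8 and Cycs in single cells, in CPM per cell (y axes), for the 10 groups in order of time, with the 45 °C group left of the 37 °C group. Each point is 1 cell and the black bar is the median of the group. Median Cflar is highest at 5 h in the 45 °C arm (107.7 CPM), median Casp8 is 0 there and at 10 h, and median Cycs is lowest at 10 h in the 45 °C arm (288.7 CPM).

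Apaf1, the scaffold that cytochrome c activates (chr10:90989311-91082770), was sparsely counted, with 43 UMIs over all unheated cells. It stood at 44.9 CPM before heating and 20.7, 14.1, 31.6 and 20.9 CPM at 1, 5, 10 and 15 h in the 45 °C arm. It stood at 24.2, 15.2, 28.7, 23.1 and 13.5 CPM in the 37 °C arm, so every heated group lay inside the unheated range of 13.5 to 44.9 CPM. The log2 ratio at 5 h, -1.12 (-2.12 to 0.33), set 96 UMIs in the heated cells against 7 UMIs in 6 control cells and had an interval that crossed 0. Leaving out 1 of those control cells brought it to -0.76. Against all unheated cells it was -0.68 (-1.21 to -0.12). At 10 and 15 h the ratios were 0.31 (-1.05 to 2.42) and 0.57 (-0.84 to 2.30), and within the heated arm Apaf1 at 10 h over 5 h was 1.18 (0.53 to 1.76).

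Casp9, the initiator caspase that Apaf-1 activates (chr4:141793612-141815976), had 59 UMIs in all 360 cells and was too sparse to compare between the arms at any time. Within the heated arm, Casp9 at 10 h over 5 h was 1.56 (0.42 to 2.54). It was at 4.99 CPM before heating and at 0, 4.26, 12.2 and 7.46 CPM at 1, 5, 10 and 15 h in the 45 °C arm, where the 0 at 1 h allows up to 6.90 CPM. In the 37 °C arm it was at 8.81, 5.05, 0, 5.77 and 11.2 CPM, and the 0 at 5 h allows up to 12.3 CPM. The unheated groups together gave 6.80 CPM (3.62 to 11.6). The ratio of Apaf1 to Casp9 UMIs was 3.31 (2.17 to 5.20) in the heated cells at 5 h and 3.31 (1.75 to 6.7) over all unheated cells. Cycs over Apaf1 was 36.3 (29.6 to 44.9) at 5 h and 11.1 (7.70 to 16.6) at 10 h in the 45 °C arm, and 23.2 (17.1 to 32.2) over all unheated cells. Singly the unheated groups ran from 12.4 to 40.2, so the 5 h heated group lay inside their range and the 10 h one below it.

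Xiap, the X-linked inhibitor that binds caspases (chrX:42059679-42109656), was low in the heated arm at 1 and 5 h and was also low in that arm before heating. Its level in the 45 °C arm was 39.9 CPM before heating and 27.6, 37.6, 42.9 and 52.2 CPM at 1, 5, 10 and 15 h. Its level in the 37 °C arm was 74.9, 61.9, 65.6, 75 and 38.2 CPM. The value at 1 h lay below all unheated groups, and that at 5 h lay just below them, of which the lowest were the 37 °C group at 15 h and the 45 °C group before heating. The log2 ratio was -1.17 (-2.32 to -0.15) at 1 h and -0.85 at both 5 h (-1.53 to 0.03) and 10 h (-1.73 to 0.21). At 15 h it was 0.43 (-0.42 to 1.38). Before heating the same ratio was -0.84 (-2.23 to 0.23), from 8 UMIs in the 45 °C arm and 34 in the 37 °C arm. Against all unheated cells the 5 h ratio was -0.66 (-0.98 to -0.32), and against the 45 °C arm before heating it was -0.17. Leaving out 1 heated cell brought the 1 h ratio to -0.85, under the 2-fold limit.

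Diablo, the gene of Smac (chr5:123509765-123524176), was higher in the heated arm at 10 and 15 h, short of 2-fold. It was at 59.9 CPM before heating and 36.8, 54.2, 55.1 and 64.1 CPM at 1, 5, 10 and 15 h in the 45 °C arm, against 63.9, 50.5, 45.1, 28.9 and 33.7 CPM in the 37 °C arm. The 2 late 37 °C groups were the lowest of the 10 groups, and the heated group at 15 h lay only just above the unheated range, which ended at 63.9 CPM. The log2 ratio was 0.90 (0.05 to 1.88) at 15 h and 0.81 (-0.38 to 2.61) at 10 h, and against all unheated cells the 15 h ratio was 0.42 (-0.14 to 0.95) and the 10 h ratio 0.20 (-0.32 to 0.70). As the mean over cells the 15 h ratio was 0.34. The 5 h ratio was 0.20 (-0.59 to 1.28) and turned to -1.53 with cells thinned to 5000 UMIs. Thinning left a Diablo UMI in 3 of the 6 control cells at 5 h. Diablo overlaps other annotated genes on its own strand, Gm49027 among them, though none of its UMIs were in values that were not whole.

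Diablo over Xiap, an antagonist over its target, was 1.44 (1.23 to 1.70) at 5 h in the 45 °C arm and 0.69 (0.29 to 1.58) in the 37 °C arm. Over the whole 45 °C arm the ratio was 1.5 before heating and 1.33, 1.44, 1.29 and 1.23 at 1, 5, 10 and 15 h. Over the 37 °C arm it was 0.85, 0.80, 0.69, 0.38 and 0.88. Only the interval of the 45 °C arm at 5 h left out 1. The intervals before heating were 0.56 to 4.23 in the 45 °C arm and 0.50 to 1.44 in the 37 °C arm. By these sums the ratio was above 1 in each group of the 45 °C arm and below 1 in each group of the 37 °C arm. This separation was already there in the pair taken before heating, with 12 UMIs of Diablo and 8 of Xiap in the 6 cells of the 45 °C arm. The arm and the heating cannot be told apart in it.

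Birc2, the gene of cIAP1 (chr9:7818227-7837064), had 30 UMIs over all unheated cells. It was at 15.0 CPM before heating and 11.5, 13.5, 20.4 and 17.9 CPM at 1, 5, 10 and 15 h in the 45 °C arm, and at 17.6, 27.8, 12.3, 5.77 and 8.99 CPM in the 37 °C arm. All heated groups lay inside the unheated range of 5.77 to 27.8 CPM. Its 10 h log2 ratio of 1.27 (-0.82 to 7.20) rested on 1 UMI in the 6 cells of the 37 °C arm, and against all unheated cells it was 0.39 (-0.51 to 1.24). With cells thinned to 5000 UMIs that ratio was -0.65, of the opposite sign.

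**Figure D4:**
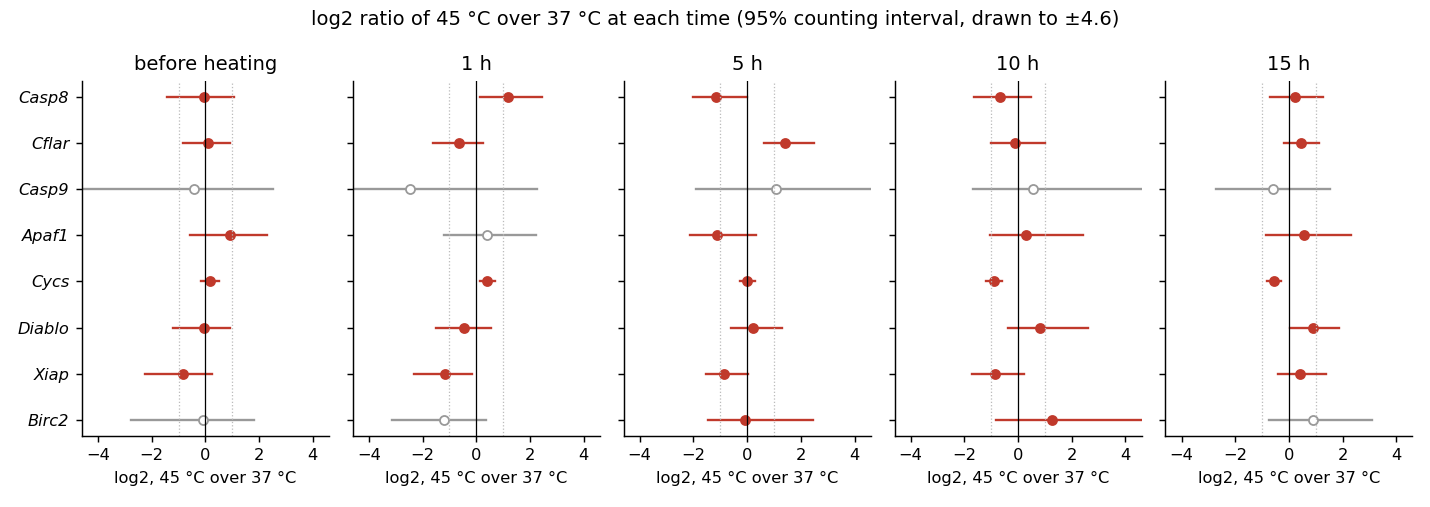
The log2 ratio of the 45 °C over the 37 °C arm (x axis) for each of the 8 genes (rows) before heating and at 1, 5, 10 and 15 h. Points are ratios of group sums, bars are exact 95% counting intervals cut at the plot's edge, dotted lines mark a 2-fold difference, and grey open points did not reach the count minimum. The intervals of Casp8 (1.20), Cycs (0.40) and Xiap (-1.17) at 1 h, of Cflar (1.41) and Casp8 (-1.17) at 5 h, of Cycs (-0.91) at 10 h, and of Cycs (-0.57) and Diablo (0.90) at 15 h stay on 1 side of 0. That of Casp8 at 5 h does so only through the rounding of its control sum.

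A wider list of 37 genes of the same pathway, none of them among the 8, was read in the same way. Of these, 8 had no UMI in any cell, which allows up to 0.278 CPM over all cells, and among them were Casp1, Casp12 and Casp14. At 1 h 15 genes of the list were measured and none was at least 2-fold higher or lower (1.48% and 6.33% of all genes). At 5 h none of 20 was higher (6.19%) and 4 were lower (15.3%), namely Traf2, Birc3, Aifm1 and Dffb. At 10 h none of 15 was higher (11.8%) and 3 were lower (7.18%), and at 15 h Tradd alone of 18 was higher (4.0%) and none was lower (2.20%). Before heating 1 of 13, the deubiquitinase gene Cyld, was at least 2-fold lower (4.57% of all genes) and none was higher (2.66%). The list's median log2 ratio was -0.16, -0.33, -0.27 and -0.07 at 1, 5, 10 and 15 h, beside -0.14, -0.23, 0.00 and -0.02 over all genes.

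The 3 genes lower at 10 h, Htra2, Aifm1 and Endog, were the 3 measured of 5 genes listed as other mitochondrial proteins or antagonists of inhibitors. Diablo, which encodes another such protein, went the other way at 10 h, at 55.1 CPM in heated cells and 28.9 CPM in 37 °C cells. Htra2, a serine protease that also binds inhibitors of apoptosis, stood at 41.8 CPM in heated cells and 152.9 CPM in 37 °C cells at 10 h, a log2 ratio of -1.91 (-2.63 to -1.14). Aifm1, the gene of apoptosis-inducing factor, stood at 30.1 CPM in heated cells and 115.4 CPM in 37 °C cells, a log2 ratio of -1.93 (-2.78 to -1.02). Endog, the gene of endonuclease G, stood at 16.3 CPM in heated cells and 34.6 CPM in 37 °C cells, with a log2 ratio of -1.16 (-2.51 to 0.56) that was -0.97 without 1 control cell. All 3 lay below all unheated groups at 10 h, as did 15.3% of all measured genes. The 37 °C group at 10 h was the highest of the 6 unheated groups for Aifm1, and all unheated cells together stood at 65.4 CPM for it. The unheated groups spanned 87.3 to 156.7 CPM for Htra2 and 19.8 to 50.5 CPM for Endog. At 15 h Htra2 stood at 110.4 CPM in heated cells and 112.3 CPM in 37 °C cells, and Aifm1 at 53.7 CPM in heated cells and 51.7 CPM in 37 °C cells. Endog stood at 17.9 CPM in heated cells and 33.7 CPM in 37 °C cells at 15 h. The heated value was again below all unheated groups, as were those of Cycs and of 13.3% of all measured genes.

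**Figure D5:**
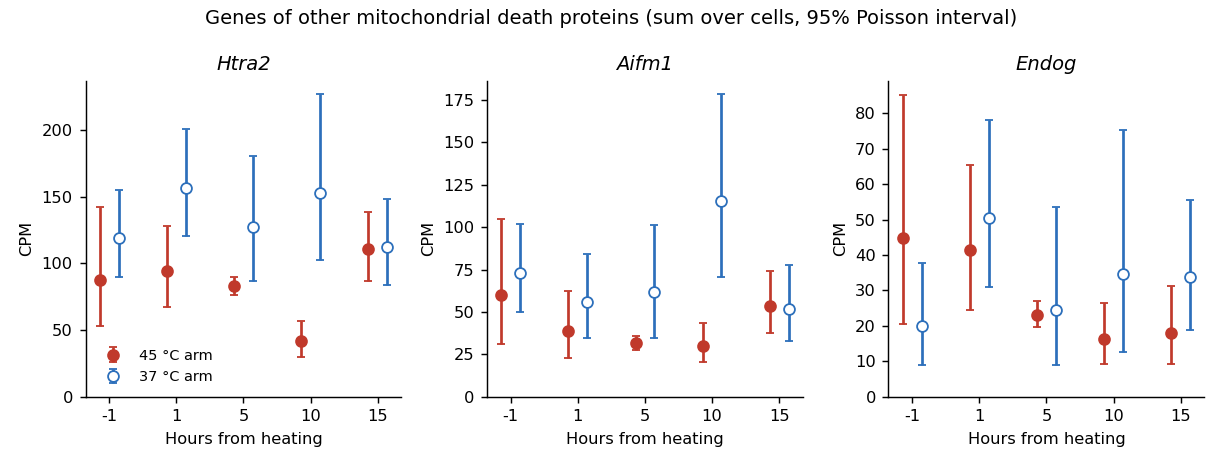
Levels in CPM (y axis, from 0) of Htra2, Aifm1 and Endog against hours from the end of heating, with the 45 °C arm in filled red and the 37 °C arm in open blue circles. Points are group sums over cells, bars are exact 95% Poisson intervals, and each group is 1 sample. At 10 h the heated group is below the 37 °C group for each gene (41.8 and 152.9 CPM for Htra2), and at 15 h Htra2 and Aifm1 are level between the arms.

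The other genes of the list that are named here showed small or poorly counted differences. Casp6, an executioner caspase, was at no time measured, with 5.75 CPM over all unheated cells. Birc5, the gene of survivin, an inhibitor family member that acts in mitosis, stood at 170.9 CPM in heated cells and 205.1 CPM in 37 °C cells at 5 h, and its log2 ratio stayed between -0.28 and -0.07 at the 4 times. Birc6, a very large ubiquitin ligase of the same family, ran between -0.70 (1 h) and 0.54 (10 h). Fadd, the adaptor between death receptors and caspase-8, was measured at 5 h only, with 74 UMIs in the heated cells and 1 in the controls. Of the genes at least 2-fold lower at 5 h, Dffb, the caspase-activated nuclease, had a log2 ratio of -1.62 (-2.59 to -0.27) that was -0.23 without 1 control cell. Birc3, the gene of cIAP2, stood at -1.10 with 4 control UMIs and at 0.31 without 1 control cell. Traf2, an adaptor that binds both cIAPs, stood at -1.05 (-1.87 to 0.04), or -0.60 without 1 control cell. Aifm1 stood at -1.01 (-1.72 to -0.10) at 5 h, or -0.71 without 1 control cell. Tradd, an adaptor of TNF receptor 1, stood at 1.31 (-0.05 to 3.18) at 15 h, with 20 UMIs in the heated cells and 5 in the controls, or at 0.98 without 1 control cell. Cyld stood at -1.14 (-3.74 to 0.47) before heating, with 3 UMIs in the 45 °C arm and 17 in the 37 °C arm, or at -0.70 without 1 cell.

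Over the heated cells at 5 h with at least 5000 UMIs, the thinned counts of the 8 genes spread about as much as those of other genes counted as often. Counts this low leave little room for most members to differ from such genes. After thinning, the Fano factor, the variance over the mean, was 1.17 for Cycs, with a median of 1.17 over genes of like mean, and 1.09 for Cflar, with a median of 1.08 over 1061 such genes. It was 0.89 for Casp8, with a median of 1.03 over 2159 genes of like mean, of which 4.26% had a lower value. No cell held more than 1 thinned UMI of Casp8 or Casp9, so their values follow from their means. Hsph1 in the same cells had a Fano factor of 6.63. The 28 pairs of members had Spearman correlations over these cells between -0.136 and 0.146, with a median of -0.015. All of these are weak, and the cells share 1 group and hold few molecules of most members.

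Across the 10 groups, likeness could be described only for Cycs and Cflar, which alone of the 8 had at least 10 UMIs in every group, as did 2559 genes. Cycs varied most like Actb (Pearson correlation of log2(CPM + 1) 0.94, Spearman 0.85), Gart (0.93 and 0.94) and Bsg (0.93 and 0.83). Cflar varied most like Slc38a2 (0.82 and 0.75), Abcb9 (0.79 and 0.75) and St13 (0.77 and 0.75). The points are 10 groups of very unequal depth that share 2 arms, and the 3 genes were picked as the highest of many.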

How the data were processed

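RNA of 360 single C1498 cells was measured. The deposited table holds the authors' estimated counts of molecules per gene and cell, unscaled. Of values above 0, 5.30% were not whole. Per the labels' protocols, RNA was fragmented and primed with a molecular barcode and an oligo-T stretch. Per the submitters' processing notes, STAR and the build mm10 were used. The STAR version, counting program, annotation and cell filters were not given in the sources used here. Each cell took its group from its treatment label. The replicate numbers only name cells, and each group was 1 sample, because no culture is named.

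UMIs were summed over the cells of a group and divided by its total (CPM), and sums were rounded to whole numbers for ratios and Poisson intervals. Intervals are exact (Poisson or Clopper-Pearson, 95%). Those of levels and ratios, and the limit of 3 UMIs for a count of 0, cover counting error only. Those of shares of cells take each cell as 1 draw. No p-value was computed. A gene was called when at least 2-fold apart. Sums were used because cells differ in depth, and a group of 6 cells gives wide intervals. All 8 members were named. Of the wider list, genes past 2-fold were named at each time, and Casp6, Birc5, Birc6 and Fadd wherever measured; some genes of that list are not reported here. The members and lists were chosen with earlier results of these data known. Alternatives changed the control cells, the total, the number added, the filter, non-whole values, cell weights, depth, and single cells left out. No cell was left out of the main values, and spike-in RNA was not analysed here. The ratio and its interval were tested on simulated data. Promoters are from RefSeq (GRCm38.p6, matched by symbol, 8 of 8 genes) and positions from the GENCODE annotation of mm10. Python 3.11.15, numpy 2.4.6, scipy 1.17.1, pandas 2.3.3 and matplotlib 3.10.9 were used.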

Additional observations from a re-analysis of the deposited data

Results flagged for a closer look

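Checked were 23 sets of a gene and a group of 4 to 10 cells. In these, 6 values in 5 cells stood far from the rest of their group. The cutoff is set to flag about 1 in 20 sets of normally spread values. That rate does not hold for sets with many zeros, so no excess over chance can be read from the flags. In the 45 °C arm before heating, cell 5 had 188.3 CPM of Casp8 and 156.9 CPM of Apaf1, cell 4 had 47.3 CPM of Casp9, and cell 6 had 71.5 CPM of Birc2. In the 37 °C arm at 10 h, cell 3 had 42.4 CPM of Casp9 and cell 2 had 27.9 CPM of Birc2. The Casp9 and Birc2 values are those of the only cell of the group with a UMI of the gene, and such a value is always flagged.

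The log2 ratio of 45 °C over 37 °C lay on opposite sides of 0 at different times for a pair of the genes, with counting intervals that did not cross 0. Casp8 stood at 1.20 at 1 h and -1.17 at 5 h, where the interval cleared 0 only through the rounding of the control sum. Cycs stood at 0.40 at 1 h, -0.91 at 10 h and -0.57 at 15 h. These differences between times were not tested, since each group is 1 sample.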

How the results depend on the processing

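Over the 25 measured gene and time ratios, 12 of 275 values under the alternatives moved outside the counting interval of the main value. Of the 275, 28 had the other sign, 9 of them after thinning and 7 against the 45 °C arm before heating, and none of these 28 was of the 8 ratios whose interval stayed on 1 side of 0. Casp8 at 5 h is among those 8 only through the rounding of its control sum. Birc2 at 10 h, 2-fold higher as reported, turned to -0.65 with cells thinned to 5000 UMIs, Diablo at 5 h to -1.53, and Cflar at 1 h to 0.12. The cause was not tested. Cflar at 5 h was 0.80 against all unheated cells, 0.44 against the 45 °C arm before heating, 1.95 with whole values only and 2.86 thinned. No Cflar UMI was left in the 37 °C cells at 5 h after thinning. Cflar at 15 h was -0.35 with whole values only and -0.24 thinned. Cycs ranged from -0.95 to -0.57 at 10 h and from -0.78 to -0.50 at 15 h over all alternatives. After thinning, only Cycs still had enough UMIs to count as measured at 1, 10 and 15 h. The members' median after thinning, 0.66 at 1 h and -0.63 at 15 h, was therefore the Cycs ratio alone. The counts after thinning at 1 and 10 h given next also rest on Cycs alone. The count of members past 2-fold at 1 h, 2 as reported, was 1 against all unheated cells, against the 45 °C arm before heating and with whole values only, 0 after thinning, 4 without the filter, and 1 to 2 with any cell left out. The count at 5 h, 3 as reported, was 1 against all unheated cells, centred on the median gene, with whole values only and as means over cells, and 5 after thinning. The count at 10 h, 1 as reported, was 0 against all unheated cells, against the 45 °C arm before heating, with 1 UMI added and after thinning, 2 with whole values only, 3 as means over cells, and 0 to 3 with any cell left out. The count at 15 h, 0 as reported, was 1 against the 45 °C arm before heating and 0 to 1 with any cell left out. Cflar over Casp8 with whole values only was 4.24 in the 45 °C arm at 5 h and 1.37 at 15 h, and 3.22 in the 37 °C arm before heating. Leaving out cells under 5000 UMIs, an alternative chosen after seeing the data, changed no count of members. No paired analysis was possible because replicate numbers only name cells within a group and no test was made. The 6 cells of the 37 °C groups at 5 and 10 h limit most of these values.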

Other observations

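Cells with no UMI of Cycs were found in the heated arm only, in 2 cells at 5 h, 8 of 52 at 10 h and 2 of 21 at 15 h, and in none of 51 unheated cells. These cells were looked at after their values had been seen. They had 1060 to 10267 UMIs each, and at the level of their group between 0.373 and 5.25 UMIs of Cycs would have been counted in each. In 10 of the 12, Rn45s, the ribosomal RNA precursor, held 65.7% to 85.9% of the UMIs, against a median of 9.20% to 12.5% over the other cells of their groups. The other two were a cell at 10 h with 3.09% and a cell at 15 h with 16.1%. Without the cells that had no Cycs, the level of Cycs was 362.0 CPM at 10 h and 372.2 CPM at 15 h in the 45 °C arm, against 657.9 and 540.3 CPM in the 37 °C arm. They were chosen for having no Cycs and hold few of the UMIs of their groups, so leaving them out could move the level only slightly, and their part in the lower level was not tested.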
